A study of Rattus norvegicus with 28 samples.

Results

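The transcripts described here are 358 of the 30367 gene expression probes of a rat array, all with a lower signal in injured, untreated hippocampus than in sham-operated hippocampus and in injured hippocampus treated with imipramine or Zoloft. A probe was taken when its 3 TBI values lay below all 8 values of the Sham, TBI+Imipramine and TBI+Zoloft arrays, when the mean of those 8 was at least 0.8 above the TBI mean on the log2 scale of the series' value table, and when all 8 were above 0.02 in linear value. The members were thus selected on the TBI difference itself, so the TBI difference is given below as a description with no test. Of all probes, 1.18% met them, whereas the same criteria turned round (TBI above all 8 arrays) took 50 probes, or 0.165%. The TBI+Prozac arrays took no part in the choice.

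Each array held whole-hippocampus RNA of 1 adult male Sprague-Dawley rat of 350 to 400 g, taken 24 h after surgery. Sham rats (n = 2) had the surgery without injury, and TBI rats (n = 3) received a parasagittal fluid-percussion injury, a pressure pulse onto the dura that models traumatic brain injury. The other 3 groups (n = 3 each) had the same injury and an intraperitoneal antidepressant 1 h later. Imipramine is a tricyclic antidepressant, and Prozac (fluoxetine) and Zoloft (sertraline) are selective serotonin reuptake inhibitors. The RNA is that of the whole tissue, so fewer cells of a type and less RNA per cell cannot be told apart.

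The 14 arrays lay on 3 slides. The TBI arrays and TBI+Prozac replicate 1 were on slide 1, slide 2 held the 8 other drug-treated arrays, and slide 3, scanned on another day, held the 2 Sham arrays. The untreated injured group and slide 1 therefore share all their arrays but 1. Between 14676 and 18196 probes were above background per array, with the fewest on TBI replicate 1. Of 17 probes for hippocampal neuron markers, 14 were above background on each of 13 arrays and 15 on TBI+Prozac replicate 1, among them those of Snap25, Camk2a, Slc17a7 and Neurod6, while the Prox1 probe was above background on no array.

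As background, the named members come from several unrelated systems. Cytochrome c oxidase, the last complex of the respiratory chain, passes electrons to oxygen and is built from subunits encoded in both the mitochondrial and the nuclear genome. Cytosolic ribosomes and a separate set of mitochondrial ribosomes with their own elongation factors make the proteins of these complexes. Abundant messages of this kind have left many processed copies in rodent genomes, so a probe designed on such a transcript can lie on a copy as well as on the parent gene. Odorant and vomeronasal receptors, to which some members belong, are the receptors of sensory neurons in the nose.

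Few members had a name. A RefSeq symbol could be given to 83 of the 358 probes (23.2%), against 61.4% of all probes, and 81 of the 83 were protein-coding genes and 2 were transcribed pseudogenes. The array's accession field merely repeated the probe identifier for 47.2% of members and for 13.9% of all probes. Members were more often printed as a single spot, which was the case for 266 (74.3%) against 43.3% of all probes. Their spots were spread unevenly down the array, with 17.9%, 24.1%, 30.2% and 27.8% of 474 spots in 4 successive blocks of its rows, against 24.9% to 25.1% of all spots. These are counts over probes, which are not replicates, and were not tested.

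Many members were dim. On the 3 TBI arrays, 154 members were above background on all, 85 on 2, 16 on 1 and 103 on none, whereas 258 were above background on all 8 arrays of the other chosen groups. For 66 of those dark on every TBI array the Sham signal gave a lower bound on the ratio of Sham to TBI, with a median of at least 1.94-fold and a largest value of at least 7.62-fold. This bound sets the Sham mean against, for each TBI array, the higher of the probe's own value and the dimmest value above background on that array. The fit described below kept a probe if 1 or more groups had it above background on all their arrays, and 333 members remained, 179 of them not through the TBI group. Since a member that is dark in TBI could pass only through a group where it was brighter, the counts below are also given for the 154 members above background on all 14 arrays.

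Levels are given below as log2 of the spot signal over the 75th percentile of the array's probes above background, so that 0 lies at that percentile and negative values are dimmer. On this scale the median member was 1.57 and 1.53 above its own TBI mean on the Sham arrays, between 1.15 and 1.21 above it on the TBI+Imipramine arrays and at least 0.95 above it on the TBI+Zoloft arrays. Over the 17322 probes kept for testing, the corresponding medians lay between -0.08 and 0.25. The 3 TBI arrays themselves stood at -0.30, 0.16 and 0.18.

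**Figure D1:**
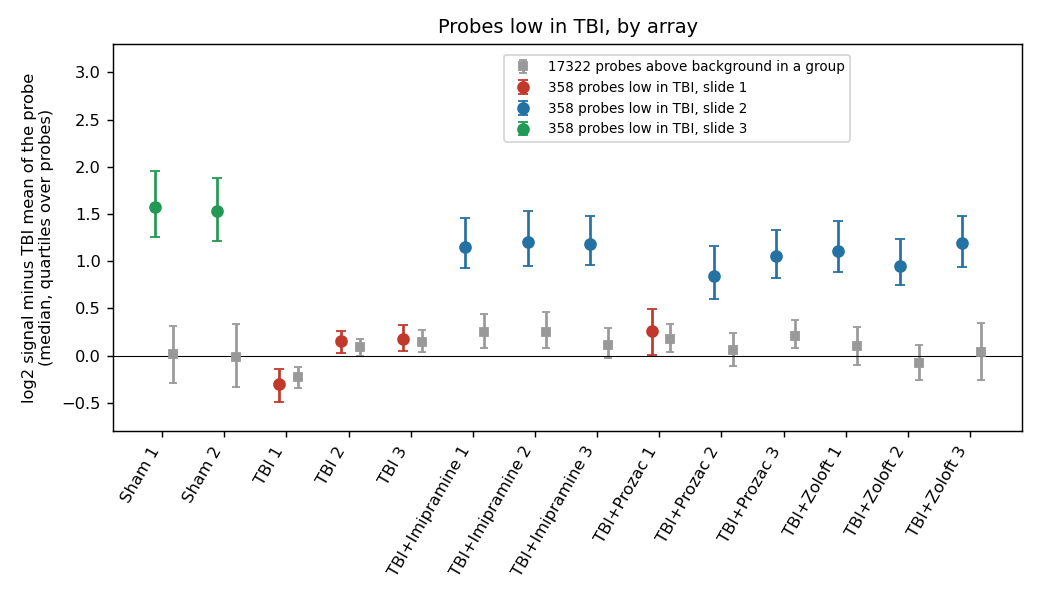
Log2 signal minus the probe's TBI mean (vertical axis) for each of the 14 arrays, with medians and interquartile ranges over the 358 members (circles, coloured by slide) and over the 17322 probes above background in at least 1 group (grey squares). The members sit near 0 on the 4 arrays of slide 1, TBI+Prozac replicate 1 included at 0.26, and at 0.84 or higher on all arrays of slides 2 and 3.

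Some of the named members belong to the respiratory chain or to translation. Cox7c encodes a small nuclear-encoded subunit of cytochrome c oxidase. Its probe read -2.49 and -3.74 in Sham, -6.45, -5.15 and -5.53 in TBI, -3.48, -4.03 and -3.72 in TBI+Imipramine, -3.50, -4.00 and -4.48 in TBI+Zoloft, and -5.76, -3.68 and -3.49 in TBI+Prozac. All TBI arrays lay below all arrays of the 3 chosen groups, and TBI+Prozac replicate 1 fell among them while replicates 2 and 3 lay among the rest. Cox6c-ps1, a pseudogene of another oxidase subunit, read -1.23 and -1.94 in Sham, -4.36, -3.67 and -3.27 in TBI, -2.19, -2.00 and -1.99 in TBI+Imipramine, -1.55, -2.01 and -2.09 in TBI+Zoloft, and -3.72, -2.24 and -2.00 in TBI+Prozac. The first Prozac array again lay inside the TBI range, the third among the 8 arrays and the other between them.

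Tsfm encodes the mitochondrial elongation factor Ts, which recharges the factor that brings aminoacyl-tRNA to mitochondrial ribosomes. It read -4.78 and -5.18 in Sham, -6.83, -6.72 and -6.65 in TBI, -5.29, -5.14 and -5.03 in TBI+Imipramine, -5.12, -5.56 and -4.98 in TBI+Zoloft, and -7.45, -5.29 and -5.25 in TBI+Prozac. TBI+Prozac replicate 1 was dimmer than any TBI array, and the probe was not above background on these 4 arrays. The Sham level was at least 2.39-fold that of TBI.

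Rpl17l5, a copy of the gene of ribosomal protein L17, read -2.18 and -2.19 in Sham, -4.23, -4.29 and -4.36 in TBI, -2.84, -2.61 and -2.58 in TBI+Imipramine, -2.83, -3.03 and -2.60 in TBI+Zoloft, and -3.63, -3.18 and -3.01 in TBI+Prozac. Here the first Prozac array lay between the TBI arrays and the others. Tpt1, the gene of the abundant growth-related protein TCTP, read -0.75 and -0.69 in Sham, -3.11, -2.01 and -2.14 in TBI, -0.73, -0.94 and -1.18 in TBI+Imipramine, -0.95, -1.04 and -1.27 in TBI+Zoloft, and -1.94, -1.38 and -1.04 in TBI+Prozac. The first Prozac array, at -1.94, lay just above the highest TBI array on this scale and in the TBI range on that of the series' value table.

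Other members act in growth control, chromatin or protein turnover. Tob1 encodes an antiproliferative protein of the BTG/TOB family, and its level was -4.96 ± 0.51 (SD, n = 2) in Sham, -8.03 ± 0.15 (SD, n = 3) in TBI, -6.40 ± 0.50 (SD, n = 3) in TBI+Imipramine and -6.37 ± 0.46 (SD, n = 3) in TBI+Zoloft. The 3 Prozac arrays read -7.62, -6.47 and -6.37, again with the first near TBI. The Tob1 probe was not above background in TBI, which gave a Sham level at least 2.41-fold higher. Rchy1, whose product is a ubiquitin ligase that acts on p53, read -3.10 and -3.17 in Sham, -4.98, -4.80 and -4.71 in TBI, -3.52, -3.23 and -3.41 in TBI+Imipramine, -3.35, -3.78 and -3.64 in TBI+Zoloft, and -4.39, -3.47 and -3.52 in TBI+Prozac. It was above background on all 14 arrays.

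Hist1h2bq, a histone H2B gene, read -4.57 ± 0.14 (SD, n = 2) in Sham and -6.69 ± 1.12 (SD, n = 3) in TBI, where replicate 1 at -7.92 was well below the others at -5.75 and -6.39. Dot1l, the methyltransferase of lysine residues in the core of histone H3, and Per1, a repressor of the circadian clock, were above background on no Sham and no TBI array, so their order between the groups rests on signal near the background. The same held for Cd8b, a T-cell co-receptor chain, and for the odorant receptor Or4f14d. Ppard, a nuclear receptor of fatty acids, and Fgf17, a fibroblast growth factor, were above background in both Sham rats and in no TBI rat, at levels at least 1.36-fold and 1.92-fold higher in Sham. A further probe of Ppard stood the other way, higher in TBI than in Sham by 1.04 ± 0.39 (SE, limma, adjusted p = 0.0997).

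Among members of transport and traffic, Slc22a15, a member of the organic ion transporter family, read -4.34 and -4.62 in Sham, -7.77, -7.24 and -7.15 in TBI, -5.93, -6.14 and -6.53 in TBI+Imipramine, -5.37, -5.68 and -5.11 in TBI+Zoloft, and -7.93, -6.29 and -5.61 in TBI+Prozac. The Sham arrays were the highest, the Zoloft arrays next and the imipramine arrays below those, with no overlap of these groups, and the first Prozac array was the lowest of all 14. Its Sham level was at least 3.37-fold that of TBI, where the probe was not above background. Bicdl1, an adaptor of dynein cargo, was at -4.69 ± 0.29 (SD, n = 2) in Sham and -7.04 ± 0.16 (SD, n = 3) in TBI, with Prozac values of -6.64, -6.13 and -5.85. Ift20, a component of the transport trains of cilia, was at -4.49 ± 0.10 (SD, n = 2) in Sham and -6.16 ± 0.29 (SD, n = 3) in TBI, with Prozac values of -6.02, -5.50 and -5.45. Sec24a, a coat protein of vesicles that leave the endoplasmic reticulum, stood at -5.71 ± 0.01 (SD, n = 2) in Sham and -6.90 ± 0.47 (SD, n = 3) in TBI.

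Several named members belong to genes best known outside the brain. Tex19.2, a gene of the germ line, read -3.07 and -2.92 in Sham, -5.13, -4.80 and -5.04 in TBI, -4.06, -3.87 and -3.86 in TBI+Imipramine, -3.73, -3.69 and -3.31 in TBI+Zoloft, and -4.70, -4.09 and -3.96 in TBI+Prozac, and was above background throughout. Gsta5, a glutathione transferase, was at -3.40 ± 0.16 (SD, n = 2) in Sham and -5.51 ± 0.47 (SD, n = 3) in TBI, with TBI+Imipramine at -4.35 ± 0.03 (SD, n = 3). Lce1e, a protein of the cornified envelope of skin, and Acp3, an acid phosphatase of the prostate, gave Sham levels at least 1.89-fold and 2.33-fold those of TBI. Taar8c, a trace amine receptor, was above background in 1 of 2 Sham rats and in no TBI rat.

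**Figure D2:**
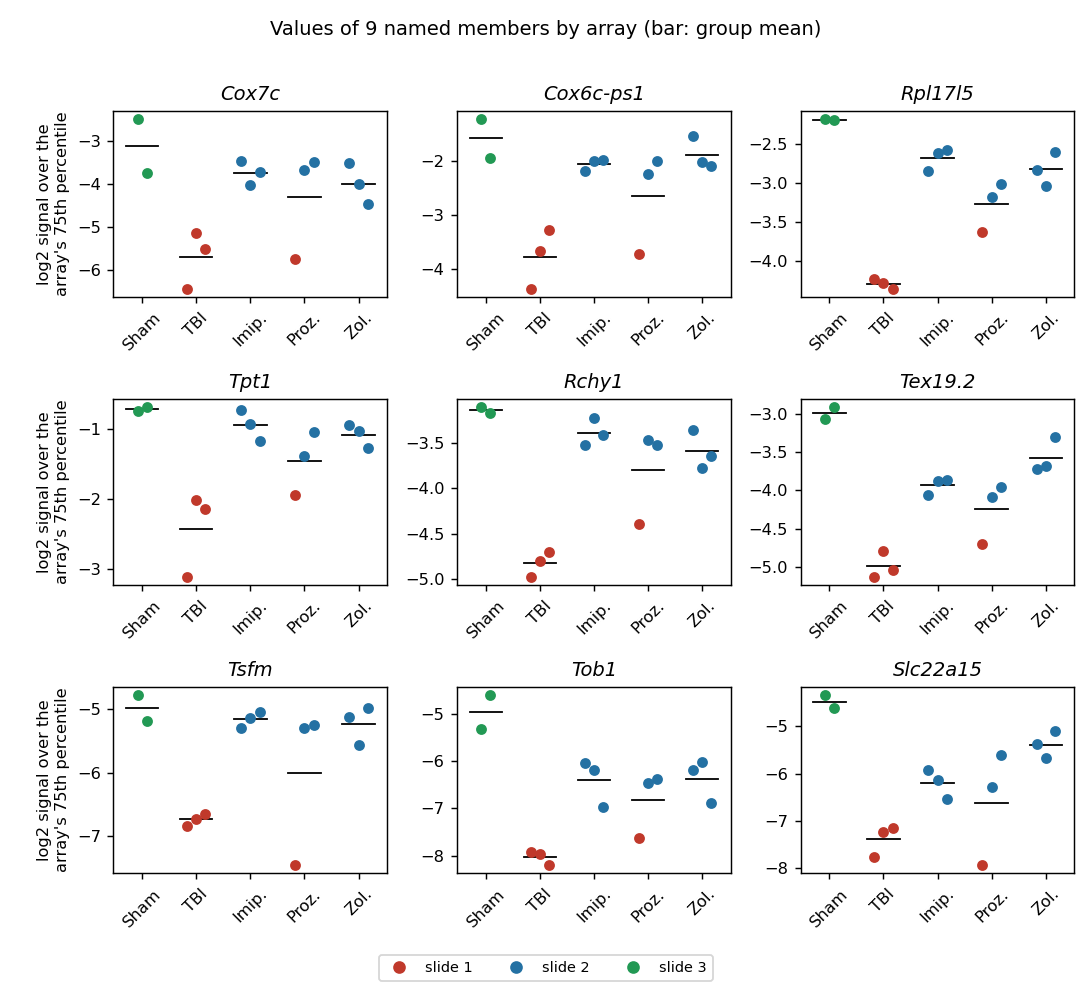
Log2 signal over the array's 75th percentile (vertical axis, a scale of its own in each panel) for 9 named members in the 5 groups, each point 1 rat coloured by slide and each bar a group mean. The 9 are a selection of the named members. In the Prozac group the array on slide 1 is the lowest of the 3 in every panel, and for Tsfm and Slc22a15 it lies below all TBI arrays. Over all 83 named members, replicate 1 was below replicates 2 and 3 for 58.

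Of the 15 gene lists used, 4 held a member. The list of odorant and vomeronasal receptors had 12 of its 1327 probes among the members, or 0.904%, against 1.18% of all probes. Only 30 of its probes were above background in a group, and 9 of these were members, where 333 of all 17322 such probes were. The list thus held a lower share of members over all its probes and a higher share over those above background. Neither share was tested. Vom1r61, a vomeronasal receptor above background on all arrays, read -2.86 and -2.91 in Sham, -5.00, -4.31 and -3.88 in TBI, and -4.08, -3.87 and -3.51 in TBI+Prozac. Or10am5 was also above background on all arrays, at -3.50 ± 0.11 (SD, n = 2) in Sham and -4.78 ± 0.26 (SD, n = 3) in TBI. Olr1454 and Or1f26 were above background in both Sham rats and in 2 TBI rats, whereas Or8b46 and Olr1143 were above background in no rat of either group.

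The respiratory chain list had 2 members of 111 probes (Cox7c and Cox6c-ps1), the ribosomal protein list 1 of 157 (Rpl17l5) and the potassium channel list 1 of 122 (Kcnv2, a silent modulatory subunit). These are 1.80%, 0.637% and 0.820% of the lists' probes, around the 1.18% of all probes. The difference between the 8 arrays and TBI was small and negative at the median of each list, members included. It was -0.04 over the respiratory chain list, -0.09 over the ribosomal list and -0.09 over the potassium channel list. These medians are on the scale of the series' value table and do not describe each probe. The remaining 11 lists had no member, although the choroid plexus list, taken up again below, had a median difference of 1.45 between the 8 arrays and TBI. They covered hippocampal neurons, astrocytes, oligodendrocytes, microglia and macrophages, endothelium and pericytes, choroid plexus, blood cells, immediate early genes, injury markers, the Notch pathway and zinc finger proteins.

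Close to the limit of 0.8, the members with the smallest differences among those with a symbol were Spopfm2l2 at 0.83, the odorant receptor Or10am5 at 0.83 and the defensin Defb20 at 0.82. Just outside stood C10h17orf107 at 0.77, Mylip at 0.77 and Rmdn2 at 0.76, all separated from TBI on the 8 arrays in the same way. The smallest difference among all members was 0.80, the median 1.13 and the largest 3.28. The last belonged to an unnamed probe that varied widely between rats of a group, at -1.63 and -5.65 in the Sham pair and at -1.88, -5.46 and -5.51 in TBI+Prozac.

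The Prozac group was the part of the data that the choice of probes had not used, and it divided by slide. The places of the Prozac arrays given next are on the scale of the series' value table. TBI+Prozac replicate 1, on the slide of the TBI rats, was at or below the highest TBI array for 239 of 358 members. It was below every TBI array for 80. Replicates 2 and 3, on the slide of the other drug-treated rats, were at or below the highest TBI array for 28 and 14 members. On a line from the TBI mean at 0 to the mean of the 8 arrays at 1, the median member stood at 0.07 in replicate 1, 0.64 in replicate 2 and 0.74 in replicate 3. For 219 members, replicate 1 was at or below the highest TBI array and both other replicates were above every TBI array. Only 31 members had all 3 Prozac arrays at or above the lowest of the 8. On the scale used for levels, replicate 1 was at or below the highest TBI array for 192 members. It was below every TBI array for 25, and the 219 became 174. The shares of all probes in these places are not given, so the counts are a description. On either scale most members were at or below the highest TBI array in 1 rat treated with Prozac, which lay on the TBI slide. Nothing further is read from these counts.

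On the scale of the series' value table, replicate 1 was the lowest of the 3 Prozac arrays for 304 of 358 members (84.9%). The same was so for 24.0% of all probes and 36.1% of those above background in a group. Replicate 1 was the highest for 28 members, against 29.8% of all probes. A single array gives no spread, so the spread in the limma fit came largely from the arrays that chose the members. The choice asked for groups that do not overlap, so that spread may be too small for members. The p-values of the Prozac comparison are thus not free of the choice. In the limma fit the difference of replicates 2 and 3 over replicate 1 had a median of 0.73 over the 333 members tested and of -0.05 over all 17314 probes tested. After adjustment over all of these probes, 6 members were higher in replicates 2 and 3 and none lower, against 0.0520% and 0.0116% of all probes. At an unadjusted p under 0.05 the counts were 176 and 4, against 2.81% and 1.92% of all probes. With normexp background correction the median over the members was 0.32 and that over all probes -0.06. Over the 154 members above background on all 14 arrays the median was 0.74, and 8 were higher and none lower, against 0.0920% and 0.0212% of the probes with that property. No member passed when either replicate 2 or replicate 3 was left out, and the comparison rests on a single rat on one side.

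Tsfm was the only named member among the 6, higher in replicates 2 and 3 by 2.18 ± 0.25 (SE, limma, adjusted p = 0.020), and since replicate 1 was not above background the difference is at least 2.58-fold. The Tsfm call was lost with normexp (0.49, limma, adjusted p = 0.89), with the replicate block (limma, adjusted p = 0.093) and without either replicate 2 or replicate 3. Cox7c differed by 2.18 ± 0.57 (SE, limma, adjusted p = 0.35), Rchy1 by 0.90 ± 0.21 (SE, limma, adjusted p = 0.24) and Cox6c-ps1 by 1.60 ± 0.41 (SE, limma, adjusted p = 0.31), none of which passed. An unnamed probe designed on an Ensembl transcript, A_44_P534781, passed with 1.85 ± 0.26 (SE, limma, adjusted p = 0.035). It read -3.50 and -3.45 in Sham, -6.78, -6.39 and -6.96 in TBI, and -6.34, -4.68 and -4.30 in TBI+Prozac. Members that showed no such division included Fgf17, with Prozac values of -6.20, -6.77 and -6.24, Ccdc60 with -4.56, -4.69 and -4.75, and Ppp1r14bl with -4.58, -5.07 and -5.16. Ppp1r14bl, which resembles an inhibitor of protein phosphatase 1, was as high on the first Prozac array as on the arrays of imipramine, at -5.00, -4.98 and -5.01.

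**Figure D3:**
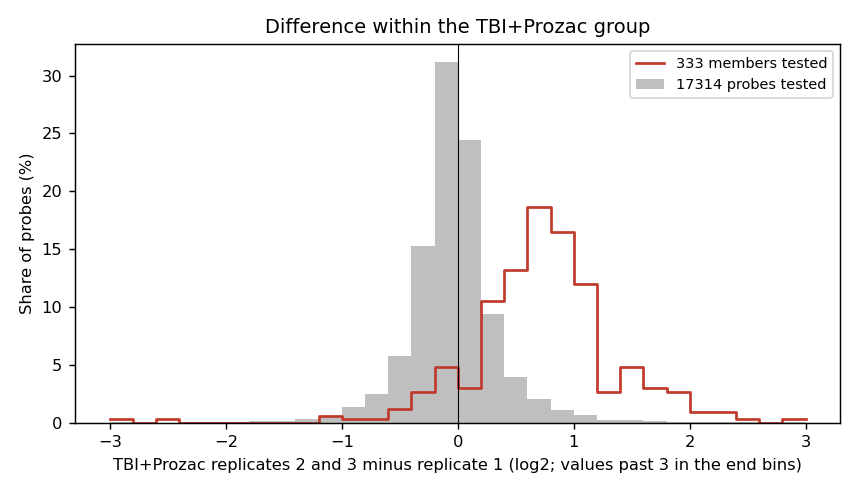
Share of probes in percent (vertical axis) by the log2 difference of TBI+Prozac replicates 2 and 3 over replicate 1 (horizontal axis, bins of 0.2), for the 333 members tested (line) and for all 17314 probes tested (bars). The members centre on 0.73 and all probes on -0.05.

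Within a slide the groups were close together. On slide 1 the median member of TBI+Prozac replicate 1 was 0.26 above the TBI mean, against 0.17 for the probes kept for testing. On slide 2 the median member was 0.23 higher in TBI+Imipramine and 0.13 higher in TBI+Zoloft than in TBI+Prozac replicates 2 and 3, against 0.07 and -0.10 for the probes kept for testing. In a fit with slide as a fixed block, in which TBI meets the drugs only through the Prozac rats, the median difference from TBI was 0.48 in place of 1.18 for imipramine and 0.34 in place of 1.09 for Zoloft, and was 0.25 for Prozac. The same medians over all probes tested were 0.24, 0.06 and 0.17. With normexp and no block the members' median was 0.53 for imipramine and 0.61 for Zoloft, and that of TBI minus Sham was -0.90 in place of -1.60. The Sham arrays share no slide with another group, so for them slide and group cannot be told apart.

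The Prozac arrays also differed in choroid plexus transcripts. The summed signal of 12 probes for choroid plexus markers, relative to the 75th percentile, was 93.6 on TBI+Prozac replicate 1, with 11 probes above background, and 1.14 and 1.64 on replicates 2 and 3, with 3 each. Ttr, the transthyretin gene that marks this tissue, read 6.44, -2.61 and -2.63 on the log2 scale. Across the other arrays the same sum ran from 1.66 to 30.9 in Sham, from 1.26 to 31.0 in TBI, from 2.99 to 116 in TBI+Imipramine and from 2.39 to 108 in TBI+Zoloft. Over the 12 probes the difference between the 8 arrays and TBI had a median of 1.45 on the scale of the series' value table, and over the 4 that were tested the difference of Prozac replicates 2 and 3 over replicate 1 had a median of -4.44. The part of this tissue in the members' pattern was not tested.

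All 8 arrays exceeded TBI by the choice of members, but the 3 groups did not stand at 1 level. Since the values of these same arrays chose the members, and a high Sham level helped a probe to pass, the comparisons among them are a description, and nothing is read from their counts. The Sham mean was above both the imipramine and the Zoloft mean for 276 members on the scale used here and for 302 on that of the series' value table. Both Sham arrays exceeded all 6 arrays of these drugs for 164 members (45.8%), against 7.81% of all probes. For TBI+Imipramine against Sham, the limma fit called 83 of 333 members lower and 4 higher, where 3.43% of all probes were lower and 18.8% higher. Over the 154 members above background on all arrays, 40 were lower and 4 higher, against 3.48% and 19.8% of probes with that property. The median was -0.39 for members and 0.18 for all probes tested, a distance of -0.57. All probes split differently under quantile normalization, with 14.7% higher and 15.8% lower, and then 172 members were lower and 3 higher. The count of calls in either direction fell from 87 to 40 without Sham replicate 1, 36 without Sham replicate 2 and 56 without TBI+Imipramine replicate 2.

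Tex19.2, above background on all arrays, was 0.94 ± 0.16 (SE of the fit) lower in TBI+Imipramine than in Sham, Rpl17l5 was 0.49 ± 0.15 lower and Gsta5 was 0.95 ± 0.23 lower. Slc22a15 and Bicdl1 were 1.72 ± 0.27 and 1.53 ± 0.21 lower, each with 2 of the 3 imipramine arrays above background. The differences of Cox7c at -0.63, Tpt1 at -0.23, Rchy1 at -0.25 and Tsfm at -0.18 were not called. The 4 higher members had no symbol, and the largest of these differences, for probe A_64_P097809, was 0.92 ± 0.17. The unnamed probes whose identifiers are printed were chosen after their values were seen.

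For TBI+Zoloft against Sham, which shares the Sham arrays, 59 members were called lower and none higher, where 1.72% of all probes were lower and 3.79% higher. At an unadjusted p under 0.05 the counts were 143 lower and 3 higher, against 9.84% and 11.96% of all probes. Over the 154 members above background on all arrays, 33 were lower and 1 higher, against 1.87% and 3.98% of probes with that property. The median was -0.47, against 0.00 over all probes tested, and with normexp background correction it was -0.27. Rpl17l5 was 0.64 ± 0.15 (SE of the fit) lower than in Sham. Bicdl1 was 1.34 ± 0.21 lower, with 1 of 3 Zoloft arrays above background, and Tob1 was above background on none of them. The count fell to 14 without Sham replicate 1, 29 without Sham replicate 2 and 35 without TBI+Zoloft replicate 2.

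The rats given Zoloft and imipramine lay on 1 slide. In TBI+Zoloft 6 members were called lower than in TBI+Imipramine and none higher, where 4.40% of all probes were lower and 0.0289% higher. At an unadjusted p under 0.05 the counts were 38 lower and 7 higher, against 22.3% and 0.918% of all probes. Over the 154 members above background on all arrays, 5 were lower and none higher, against 6.04% and 0.0566% of probes with that property. The median was -0.13 for members and -0.18 for all probes tested, and with quantile normalization it was 0.11 and 0.00. Ppp1r14bl was the named member among the 6, at 0.73 ± 0.18 (SE of the fit) lower in TBI+Zoloft. That value was -0.50 with quantile normalization, -0.53 on the series table and -0.01 with normexp, and it was called under 2 of 13 alternatives. No member was called without TBI+Imipramine replicate 1, without TBI+Imipramine replicate 2 or without TBI+Zoloft replicate 2.

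Other probes of the same genes were used to ask whether the low TBI signal was shared by the transcript elsewhere. Of the 83 genes, 27 had 32 other probes on the array, and 21 of these, in 19 genes, were above background in a group. In the limma fit of TBI against Sham, 3 were lower and none higher (14.3% lower, against 7.98% of all probes lower and 7.75% higher). At an unadjusted p under 0.05 there were 10 of the 21, of which 4 were higher. Of all probes, 14.6% were lower and 15.3% higher at that threshold. Their median difference was -0.17, where the member probes of the same genes, chosen for this contrast, had a median of -1.67. None of the 32 reached a difference of 0.8 between the 8 arrays and TBI, the largest being 0.70.

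The 3 were probes of Tex19.2, Otof and Leng8. The other Tex19.2 probe was lower in TBI by 1.17 ± 0.17 (SE, limma, adjusted p = 0.0011), reading -1.12 and -0.96 in Sham and -2.39, -2.10 and -2.14 in TBI, and its Prozac values were -1.87, -1.52 and -1.76. The other probe of Otof, which encodes the calcium sensor otoferlin, was lower by 1.11 ± 0.21 (SE, limma, adjusted p = 0.0049), with -2.21 and -1.67 in Sham and -3.10, -2.93 and -3.12 in TBI. That of Leng8 was lower by 0.74 ± 0.19 (SE, limma, adjusted p = 0.025). Without Sham replicate 2 only 1 of the 21 passed. Without TBI replicate 1 there were 5, of which 2 were higher, where 6.17% of all probes were lower and 10.5% higher. With quantile normalization there were 8, of which 3 were higher, where 13.1% of all probes were lower and 12.6% higher.

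The translation genes differed between their probes. The other Rpl17l5 probe read 1.59 and 1.31 in Sham and 1.34, 1.60 and 1.59 in TBI, a difference of 0.06 ± 0.17 (SE, limma, adjusted p = 0.85), where the member probe had differed by -2.11. The other probes of Tpt1 differed by 0.18 ± 0.19 (SE, limma, adjusted p = 0.57) and 0.83 ± 0.55 (SE, limma, adjusted p = 0.34), against -1.70 for the member. The members' values were chosen for this contrast, so their distance from the other probes is a description and was not tested. The other probes of Ppard at 1.04, Hist1h2bq at 0.78, Qsox2 at 0.74, Dnajc19 at 0.31, Slc22a15 at -0.32 and Eif3h at -0.25 did not pass. Each probe is compared here only with itself between groups.

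**Figure D4:**
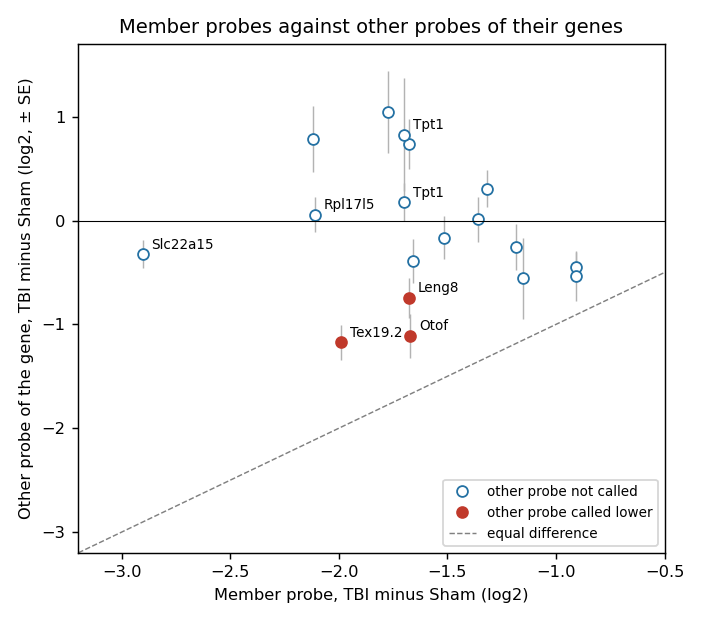
Log2 difference of TBI minus Sham for 18 other probes (vertical axis, with SE) against that of the member probe of the same gene (horizontal axis), with filled points where the other probe passed the adjusted threshold. All 18 lie above the dashed line of equal difference, and the 3 filled points are Tex19.2, Otof and Leng8. The horizontal values were chosen to be large, so the place of the points against the line was not tested.

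The starts of 64 of the 83 genes could be looked up in RefSeq (GRCr8). The windows are shown for Rpl17l5, Tpt1 and Rchy1, whose member probes were low in TBI and above background in every rat. Each is the 250 bases before the annotated start, 5′ to 3′ on the gene's strand, with capitals where 1 of the 6 motifs searched lies on either strand. Rpl17l5 is at chr10:45862440-45862689 on the minus strand, Tpt1 at chr15:57565894-57566143 on the plus strand and Rchy1 at chr14:16397283-16397532 on the plus strand.
Rpl17l5: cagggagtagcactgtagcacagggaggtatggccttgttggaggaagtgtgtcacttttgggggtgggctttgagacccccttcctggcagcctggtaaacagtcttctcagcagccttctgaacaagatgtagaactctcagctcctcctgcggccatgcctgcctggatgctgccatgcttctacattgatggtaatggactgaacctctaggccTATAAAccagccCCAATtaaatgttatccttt
Tpt1: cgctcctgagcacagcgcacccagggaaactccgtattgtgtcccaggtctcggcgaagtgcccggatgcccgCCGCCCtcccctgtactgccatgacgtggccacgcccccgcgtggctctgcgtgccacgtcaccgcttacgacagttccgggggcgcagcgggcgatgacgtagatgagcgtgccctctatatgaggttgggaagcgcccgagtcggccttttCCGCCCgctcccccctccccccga
Rchy1: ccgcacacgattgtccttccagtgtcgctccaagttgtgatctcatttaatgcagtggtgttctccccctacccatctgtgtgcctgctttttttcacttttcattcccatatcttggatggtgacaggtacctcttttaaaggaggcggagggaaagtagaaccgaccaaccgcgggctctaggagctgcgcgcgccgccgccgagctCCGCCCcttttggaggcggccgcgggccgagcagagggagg

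The Rpl17l5 window carries TATAAA and CCAAT near its end, and those of Tpt1 and Rchy1 carry GGGCGG on the reverse strand. The window of Tex19.2, whose member probe was also above background in every rat, carries none of the 6 motifs and is not printed. As given above, the other probes of Rpl17l5 and Tpt1 were not lower in TBI than in Sham. Over the 64 windows, TATAAA occurred in 20.3% (12.9% of all 33469 windows), CCAAT in 21.9% (34.0%), GGGCGG in 35.9% (30.5%), CGGAAG in 15.6% (13.9%), TGACGTCA in 1.56% (1.59%) and CACGTG in 3.12% (5.59%). The motifs do not contain one another. The median GC content was 54.2% in the members' windows and 51.2% in all. These shares describe letters in the windows and were not tested.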

How the data were processed

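Gene expression was measured on 14 1-colour Agilent rat arrays, 1 per rat. Per the file headers the authors read them with Agilent Feature Extraction 11.5.1.1. The deposited scanner files hold spot intensity values (background-subtracted processed signal), and the deposited series table holds the same intensity values scaled, as the values show, to each array's 75th percentile over all probes, with a floor of 0.01. The number of arrays limits the precision.

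Members were chosen on log2 of the series table. All other values were made from the scanner files: spots of a probe were averaged without outlier and control spots, scaled to the 75th percentile of the array's probes above background (over 0.5 of its spots), and put on the log2 scale. Probes that all arrays of 1 or more groups had above background were tested with limma 3.58.1 (R 4.3.3, lmFit and eBayes) with TBI+Prozac replicate 1 as a group of its own, since it lies on the TBI slide, and p-values adjusted by Benjamini-Hochberg over all probes tested, at 0.05. The fit was tested on simulated data.

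The members and the gene lists were chosen with earlier results of these data known. Named were the 30 members with a symbol and the largest difference, members on a list, and 3 on either side of the limit. Symbols were taken by accession from RefSeq. Alternatives were other scalings, background corrections, filters, blocks, the methods' t-test and single arrays left out. Normexp was run on the median signal, since the scanner data held no spot mean. The miRNA arrays were not analysed here. Replicate numbers mark separate rats, and same-numbered arrays of different groups did not deviate together (2 of 26 pairs had a correlation over 0.1), so they were not taken as pairs.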

Additional observations from a re-analysis of the deposited data

How the results depend on the processing

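The choice of members gave 238 probes with a difference limit of 1.0 and 185 with a linear minimum of 0.1, and between 335 and 483 with 1 array left out. The scanner values gave 315 probes, of which 240 were among the 358. TBI+Prozac replicate 1 was at or below the highest TBI array for 192 members on the scanner values, a comparison added after seeing the data, in place of 239.

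Members called in the Prozac comparison (6) numbered 2 with normexp, 11 with outlier spots kept, 52 with quantile normalization, 41 on the series table, 0 with the replicate block and between 0 and 0 with a Prozac array left out. Those of TBI+Imipramine against Sham (87) numbered 44 among probes above background on all arrays, 175 with quantile normalization, 177 on the series table, 136 with the methods' t-test at its unadjusted threshold, 36 with that test after Benjamini-Hochberg, and 36 to 72 with 1 array left out. Those of TBI+Zoloft against Sham (59) numbered 34 above background on all arrays, 30 with no filter on dim probes, 109 with quantile normalization, 108 on the series table, 119 and 0 with the methods' t-test before and after adjustment, and 14 to 65 with 1 array left out. With slide as a random block these were 72 and 43. Those of TBI+Zoloft against TBI+Imipramine (6) numbered 0 with no filter, 2 with normexp, 2 with quantile normalization, 3 on the series table, 1 with the replicate block, 43 and 0 with the methods' t-test, and 0 to 7 with 1 array left out. Calls among the other probes of members' genes (3) numbered 8 with quantile normalization, 7 on the series table, 5 with slide as a random block, 6 and 0 with the methods' t-test, and 1 to 5 with 1 array left out. No named member that passed changed direction under any alternative run, although Ppp1r14bl (-0.73) stood at -0.01 with normexp, and Tsfm (2.18) at 0.49. The counts of calls take both directions together, and the share of all probes called moved as well. For imipramine against Sham, 3.43% of all probes were lower in the fit above, 15.8% with quantile normalization and 16.5% on the series table. For Zoloft against Sham these shares were 1.72%, 6.12% and 5.66%, and for Zoloft against imipramine 4.40%, 0.433% and 0.450%. For TBI against Sham they were 7.98%, 13.1% and 13.2%. A changed count is therefore not read as a change in the members. The causes of these changes were not tested. With the replicate block, 90 and 49 members passed in the comparisons of imipramine and of Zoloft with Sham. Since 103 members were above background on no TBI array, the size of their fall is known only as a bound.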
